A study of Drosophila melanogaster with 31 samples.

Results

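Which genes responded to loss of Tsc1 differently upon nutrient restriction (NR) than on normal food was asked of clones in the eye imaginal disc of Drosophila larvae, the epithelium that gives rise to the adult eye. The libraries were chosen by their titles: Tsc1 mutant clones under NR (4 libraries), wt clones under NR (4 libraries), Tsc1 mutant clones on normal food (4 libraries) and wt clones on normal food (3 libraries), which makes 15 of the 31 libraries of the series. One more wt library on normal food, replicate 4, was left out. It held 2597050 counts on 6450 genes, fewer of both than any library used. The Tsc1 mutant clones were homozygous for Tsc1 Q87X, a nonsense allele, and the wt clones carried the isogenized FRT82 chromosome without it. By the study's methods, all of these clones came from siblings of the larvae used for foxo knockdown, with the MARCM system, Gal80ts and a foxo-RNAi transgene that was not induced at 25°C. All clones were induced by an 11 min heat shock at 37°C at 36 hr after egg laying (AEL) and stayed at 25°C. Clones of about 50 cells lying anterior to the morphogenetic furrow were cut out by laser microdissection, and each library came from 1 clone. NR food held 10% of the 100 g/L yeast of normal food. Clones were taken at 6.5 days AEL under NR and at 4.5 days AEL on normal food, so that food and age cannot be told apart. Whether the clones of a group came from separate larvae is not given, and p-values measure the spread between these libraries. The RNA was from whole clones, so that fewer cells of a type and less RNA per cell cannot be told apart.

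Tsc1 and Tsc2 form a complex that switches off the GTPase Rheb, the activator of the kinase complex TORC1. Amino acids and insulin signaling raise TORC1 activity and NR lowers it, and cells that lack Tsc1 keep TORC1 active. FoxO is a transcription factor that insulin signaling holds in the cytoplasm, and it turns on starvation genes when insulin signaling is low. Ahead of the furrow, the eye disc holds dividing progenitors, whose identity depends on the retinal determination genes.

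The quantity reported is the Tsc1-by-food difference: the log2 difference of Tsc1 mutant over wt clones under NR, minus the same log2 difference on normal food. A negative value means that Tsc1 mutant clones stood lower against wt clones under NR than on normal food. Levels are given as CPM, that is, counts divided by the library size after TMM normalization. Calls required an adjusted p under 0.2 together with a log2 difference over 0.8 in size. Of 9979 genes tested, 17 were called (0.17%), 8 of them negative (0.0802%) and 9 positive (0.0902%). At an unadjusted p under 0.05 there were 820 genes (8.22%), 306 of them negative (3.07%) and 514 positive (5.15%). The libraries of the genotypes did not overlap under NR for 690 genes (6.91%) and on normal food for 950 (9.52%). All statements on overlap concern the 15 libraries used, without wt normal replicate 4. Of the 17, 16 have a symbol in the annotation and are described by name. They include regulators of transcription (vri, Eip75B, elB and ac), secreted signals, receptors and surface proteins (shf, bnl, fz2, drl and side-IV), and enzymes (Cht6 and Aldh).

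The number of called genes was sensitive to single libraries. It was 128 without wt NR replicate 1, 64 without Tsc1 NR replicate 2 and 43 without wt normal replicate 1. It was 9 without Tsc1 NR replicate 1, 8 without Tsc1 NR replicate 4, and 3 to 6 without any one of wt NR replicates 2, 3 and 4, Tsc1 NR replicate 3, wt normal replicate 2 and Tsc1 normal replicates 1, 2 and 3. With wt normal replicate 4 added it was 6. The 3 genes called in each of these fits were vri, Eip75B and Cht6, and they were also the 3 genes with an adjusted p under 0.05. All 17 called genes kept their sign in each of the 15 fits that left out 1 library. These fits share their libraries with the fit that chose the genes, so that kept signs are not a separate check.

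vri, which encodes a bZIP transcription factor and circadian repressor of Clock, had the smallest p of all genes. It lies at chr2L:5288944-5311223, plus strand (BDGP6.54, as all coordinates here). Under NR it had 4.0, 13.5, 6.17 and 4.87 CPM in Tsc1 mutant clones, against 42.9, 36.8, 99.6 and 85.1 CPM in wt clones. For normal food the levels were 63.3, 47.2, 39.6 and 39.9 CPM in Tsc1 mutant clones, against 29.0, 25.6 and 32.5 CPM in wt clones. Every Tsc1 mutant clone was below every wt clone under NR, and every Tsc1 mutant clone was above the 3 wt clones used on normal food. The left-out wt normal replicate 4, on the scale of a fit that included it, had 49.8 CPM, within the range of the Tsc1 mutant clones on normal food. Mean levels were 7.13 ± 4.32 CPM in Tsc1 mutant clones and 66.1 ± 31.0 CPM in wt clones under NR (SD, n = 4 each), and 47.5 ± 11.1 CPM in Tsc1 mutant clones (SD, n = 4) and 29.0 ± 3.48 CPM in wt clones (SD, n = 3) on normal food. The Tsc1-by-food log2 difference was -3.92 (SE 0.57, adjusted p = 0.0379), made up of -3.21 under NR and 0.71 on normal food. It ranged from -4.40 to -3.67 when 1 library was left out.

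Eip75B encodes the nuclear receptor E75, an early target of the steroid hormone ecdysone, and lies at chr3L:17950953-18064696, minus strand. Under NR its levels were 23.8, 34.6, 33.2 and 45.5 CPM in Tsc1 mutant clones, against 123, 182, 246 and 168 CPM in wt clones. On normal food they were 92.2, 108, 118 and 107 CPM in Tsc1 mutant clones, against 144, 122 and 104 CPM in wt clones. Tsc1 mutant clones were well below all wt clones under NR, whereas on normal food the genotypes overlapped. This gave a Tsc1-by-food log2 difference of -2.17 (SE 0.34, adjusted p = 0.0402), of which -2.39 came from NR and -0.21 from normal food. It was the only called negative gene with the same sign in both foods. The other 7 called negative genes were lower in Tsc1 mutant clones under NR and higher on normal food in their fitted values.

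**Figure D1:**
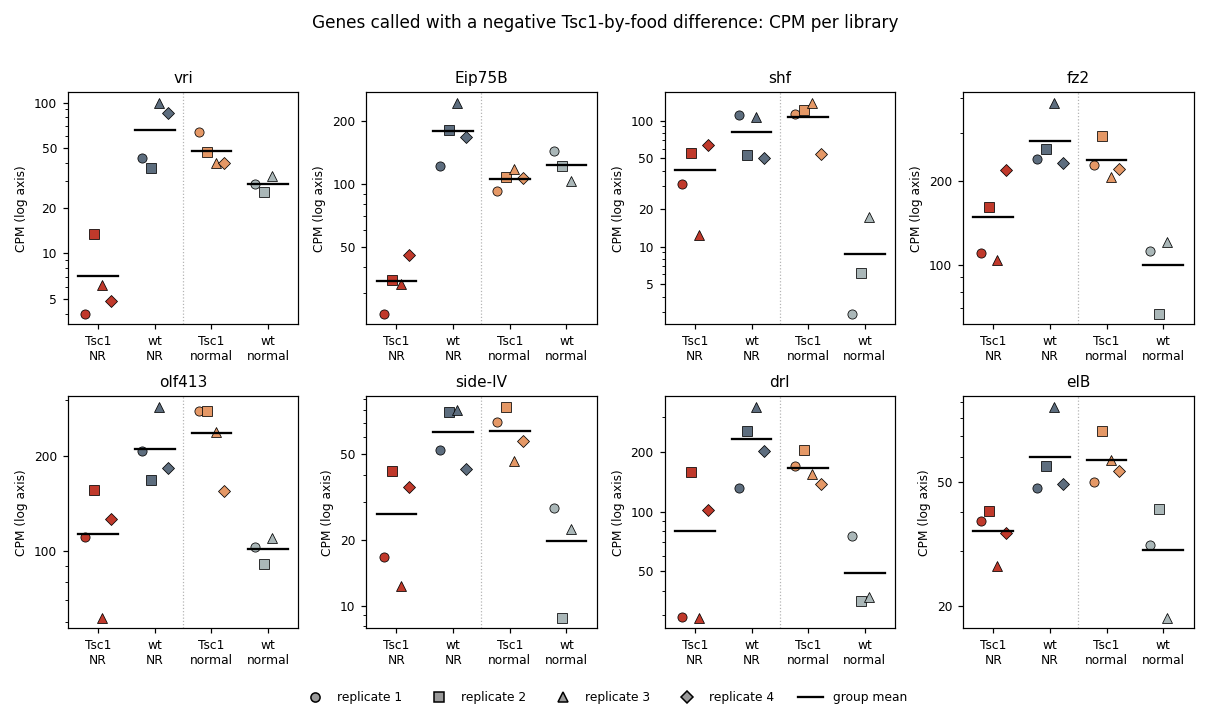
CPM of the 8 genes with a negative Tsc1-by-food difference in each library, on a log axis, with Tsc1 and wt clones under NR at left and on normal food at right (points are libraries, the symbol gives the replicate number and the horizontal bars are group means). vri and Eip75B lie lowest in the 4 Tsc1 mutant clones under NR. The others, shf, fz2, olf413, side-IV, drl and elB, have their lowest group mean in wt clones on normal food.

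A group of the negative genes encodes receptors and carriers of secreted signals. fz2 encodes Frizzled 2, a receptor for Wg and other Wnt ligands (chr3L:19140975-19235373, minus strand). Its levels under NR were 110.2, 162, 104 and 220.1 CPM in Tsc1 mutant clones, against 241, 262, 384 and 233 CPM in wt clones. On normal food they were 229.9, 293, 207 and 222 CPM in Tsc1 mutant clones, against 112, 66.6 and 120.4 CPM in wt clones. The genotypes did not overlap in either food, with Tsc1 mutant clones below wt clones under NR and above them on normal food. The Tsc1-by-food log2 difference was -2.16 (SE 0.40, adjusted p = 0.0931), with -0.91 under NR and 1.25 on normal food. It was called in 12 of the 15 fits without 1 library, and lost without wt NR replicate 3, wt normal replicate 2 or Tsc1 normal replicate 2, where the adjusted p reached 0.264.

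drl encodes Derailed, a Ryk family receptor of Wnt5 (chr2L:19190342-19208621, plus strand). NR libraries had 29.4, 158, 29.2 and 102 CPM in Tsc1 mutant clones, against 131, 256, 337 and 203 CPM in wt clones. Libraries on normal food had 169, 204, 154 and 138 CPM in Tsc1 mutant clones, against 75.4, 35.4 and 37.2 CPM in wt clones. On normal food all wt clones were below all Tsc1 mutant clones, and under NR the highest Tsc1 mutant clone exceeded the lowest wt clone. This gave a Tsc1-by-food log2 difference of -3.29 (SE 0.71, adjusted p = 0.177), and it was called in 4 of the 15 fits without 1 library, with an adjusted p of up to 0.503.

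shf encodes Shifted, a secreted protein of the WIF family that helps Hedgehog to spread through the disc (chrX:6771463-6779659, minus strand). Under NR, shf measured 31.6, 55.6, 12.4 and 63.8 CPM in Tsc1 mutant clones, against 111, 53.5, 108 and 50.5 CPM in wt clones. On normal food it measured 112, 121, 138 and 54.2 CPM in Tsc1 mutant clones, against 2.93, 6.11 and 17.3 CPM in wt clones. All 3 wt clones on normal food were below all Tsc1 mutant clones, and the genotypes overlapped under NR. The Tsc1-by-food log2 difference of -4.58 (SE 0.82, adjusted p = 0.0931) was thus mostly the 3.60 on normal food, against -0.98 under NR. It was called in 11 of the 15 fits without 1 library, and lost without wt NR replicate 3, wt normal replicate 2, Tsc1 normal replicate 2 or Tsc1 normal replicate 3, with an adjusted p of up to 0.277.

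Of 25 tested Wnt pathway genes, a list that was put together after the values were seen, fz2 and drl were called. A further 2 had a negative difference and 4 a positive one at an unadjusted p under 0.05, and the median of the list was -0.01, against 0.06 over all genes tested. The negative ones were arr, the LRP5/6 co-receptor, at -2.63 (unadjusted p = 0.00123, adjusted p = 0.385) and dnt, a second Ryk family receptor, at -1.52 (unadjusted p = 0.00976, adjusted p = 0.511). In the other direction fz3, a Frizzled receptor and Wg target, had 2.98 (unadjusted p = 0.00454, adjusted p = 0.455). Wnt6 had 7.67 (unadjusted p = 0.00306, adjusted p = 0.437) and Notum 5.12 (unadjusted p = 0.0491, adjusted p = 0.607). Wnt10, at 0 in Tsc1 mutant clones on normal food, had a lower bound of 3.07 (unadjusted p = 0.00153, adjusted p = 0.401). No member but fz2 and drl passed the adjusted threshold. Of 16 Hedgehog pathway genes, chosen in the same way, shf alone had an unadjusted p under 0.05.

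The 3 other negative genes were side-IV, olf413 and elB. side-IV encodes an immunoglobulin family cell surface protein of the Sidestep group (chr3R:13450590-13464184, plus strand). It measured 16.7, 42.1, 12.3 and 35.2 CPM in Tsc1 mutant clones, against 52.4, 78.5, 79.9 and 42.7 CPM in wt clones under NR. On normal food it measured 70.4, 82.9, 46.4 and 57.9 CPM in Tsc1 mutant clones, against 28.4, 8.78 and 22.5 CPM in wt clones. All Tsc1 mutant clones were below all wt clones under NR and above all of them on normal food. Its Tsc1-by-food log2 difference was -2.94 (SE 0.60, adjusted p = 0.152).

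olf413 (chr3L:22136090-22247702, plus strand) is predicted to encode a copper-dependent monooxygenase. NR levels were 111, 156, 61.7 and 126 CPM in Tsc1 mutant clones, against 207, 168, 286 and 183 CPM in wt clones. Those on normal food were 277, 277, 238 and 155 CPM in Tsc1 mutant clones, against 103, 90.9 and 111 CPM in wt clones. The genotypes were apart in both foods and in opposite order, and the Tsc1-by-food log2 difference was -2.11 (SE 0.40, adjusted p = 0.0931). elB encodes Elbow B, a zinc finger protein of the NET family (chr2L:14390628-14409549, minus strand). It had 37.5, 40.4, 26.8 and 34.3 CPM in Tsc1 mutant clones, against 47.8, 56.2, 86.6 and 49.2 CPM in wt clones under NR. It had 49.9, 72.6, 58.5 and 54.2 CPM in Tsc1 mutant clones, against 31.5, 40.9 and 18.4 CPM in wt clones on normal food. Again the order was reversed between the foods without overlap, with a Tsc1-by-food log2 difference of -1.75 (SE 0.38, adjusted p = 0.194), the smallest in size of the 8. Of the 3, olf413 was called in 10 of the 15 fits without 1 library (adjusted p up to 0.277), side-IV in 4 of the 15 (up to 0.465) and elB in 3 of the 15 (up to 0.503).

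Not called but next in order of p were fng and lama. fng encodes Fringe, the glycosyltransferase that sets which ligands Notch responds to, and had a difference of -2.57 (SE 0.62, adjusted p = 0.308). It measured 115.3, 55.0, 97.8 and 101 CPM in Tsc1 mutant clones, against 156, 78.3, 197 and 84.8 CPM in wt clones under NR. It measured 147, 111, 192 and 62.6 CPM in Tsc1 mutant clones, against 52.7, 16.3 and 21.1 CPM in wt clones on normal food. These 3 wt clones were the lowest of the 15 libraries, and the left-out wt normal replicate 4 had 120 CPM. lama, which marks undifferentiated eye disc progenitors, had -4.32 (SE 1.06, adjusted p = 0.312) and overlapped between the genotypes under NR, at 11.3, 24.5, 5.65 and 1.31 CPM in Tsc1 mutant clones, against 27.0, 33.8, 12.0 and 5.94 CPM in wt clones. Its levels on normal food were 64.1, 45.6, 76.0 and 74.9 CPM in Tsc1 mutant clones, against 11.9, 2.35 and 3.48 CPM in wt clones. These Tsc1 mutant clones were the highest of the 15 libraries, but the left-out wt normal replicate 4 had 82.8 CPM of lama.

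Cht6 had the smallest p of the positive genes. It encodes a chitinase family protein and lies at chrX:10016845-10050803, plus strand. Under NR it had 244, 204, 192 and 206 CPM in Tsc1 mutant clones, against 48.1, 32.2, 25.8 and 45.4 CPM in wt clones. Its levels on normal food were 19.2, 79.4, 42.1 and 118 CPM in Tsc1 mutant clones, against 101, 321 and 155 CPM in wt clones. Every Tsc1 mutant clone was above every wt clone under NR, whereas on normal food the genotypes overlapped through Tsc1 normal replicate 4 and wt normal replicate 1. Mean levels were 211 ± 22.7 CPM in Tsc1 mutant clones and 37.9 ± 10.6 CPM in wt clones under NR (SD, n = 4 each), and 64.8 ± 43.5 CPM in Tsc1 mutant clones (SD, n = 4) and 192 ± 115.04 CPM in wt clones (SD, n = 3) on normal food. The Tsc1-by-food log2 difference was 4.05 (SE 0.65, adjusted p = 0.0402), of which 2.48 came from NR and -1.57 from normal food, and it ranged from 3.42 to 4.52 when 1 library was left out.

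**Figure D2:**
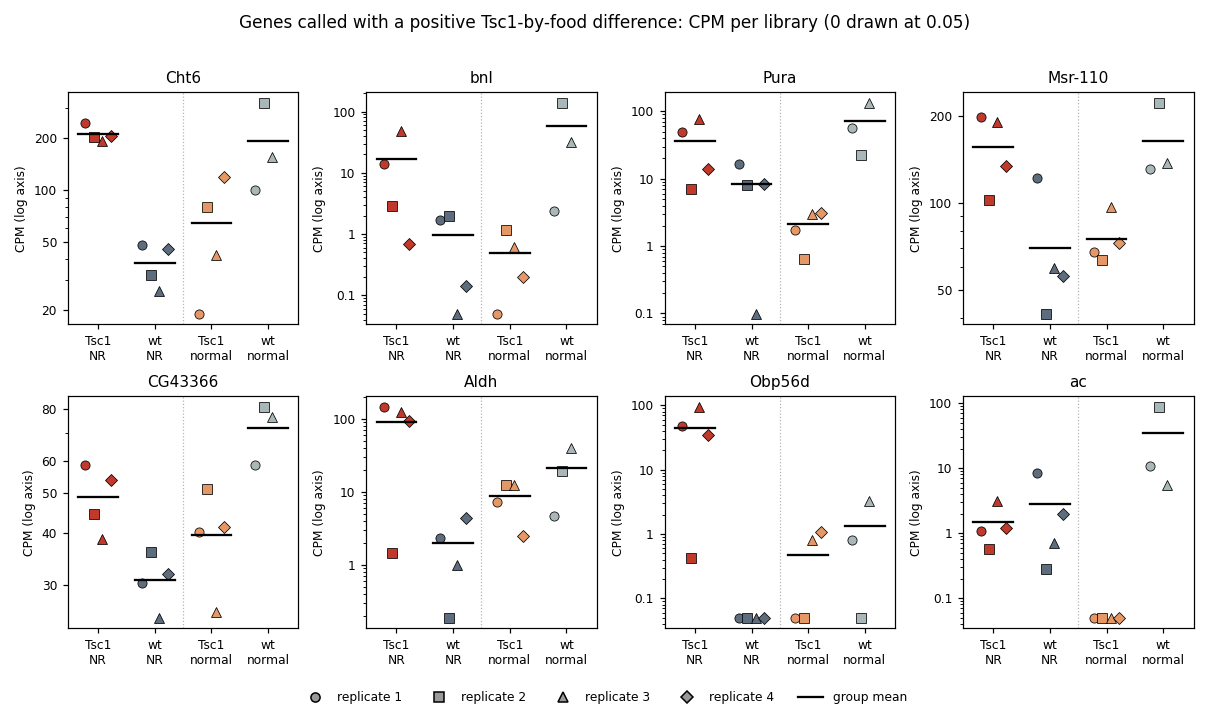
CPM of the 8 genes with a symbol and a positive Tsc1-by-food difference in each library, with Tsc1 and wt clones under NR at left and on normal food at right (points are libraries, the symbol gives the replicate number and the horizontal bars are group means). Cht6 lies between 192 and 244 CPM in the 4 Tsc1 mutant clones under NR, whereas bnl and ac have most of their CPM in wt normal replicate 2.

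Msr-110 (chr3L:5566919-5577348, minus strand) and CG43366 (chr2R:5893895-5931363, plus strand) were measured at moderate levels in all libraries. Msr-110 had 199, 102, 191 and 134 CPM in Tsc1 mutant clones, against 122, 41.4, 59.5 and 56.0 CPM in wt clones under NR. The libraries on normal food had 67.5, 63.6, 96.6 and 72.6 CPM in Tsc1 mutant clones, against 132, 223 and 138 CPM in wt clones. wt clones were all above Tsc1 mutant clones on normal food, and the genotypes overlapped under NR through wt NR replicate 1. CG43366 had 58.7, 44.5, 38.8 and 53.9 CPM in Tsc1 mutant clones, against 30.3, 36.1, 25.0 and 31.9 CPM in wt clones under NR. It had 40.2, 51.1, 25.8 and 41.5 CPM in Tsc1 mutant clones, against 58.5, 80.9 and 76.7 CPM in wt clones on normal food. CG43366 was the one called positive gene whose genotypes were apart in both foods, above wt under NR and below it on normal food. The log2 differences were 2.29 (SE 0.46, adjusted p = 0.152) for Msr-110 and 1.53 (SE 0.33, adjusted p = 0.174) for CG43366. They were called in 5 of the 15 fits without 1 library for Msr-110 (adjusted p up to 0.465) and in 3 of the 15 for CG43366 (up to 0.503).

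Aldh, which encodes the mitochondrial aldehyde dehydrogenase (chr2L:9387389-9391567, plus strand), was high in 3 of the 4 Tsc1 mutant clones under NR. NR libraries had 145, 1.44, 124 and 94.5 CPM in Tsc1 mutant clones, against 2.34, 0.188, 0.996 and 4.38 CPM in wt clones. On normal food the levels were 7.34, 12.2, 12.5 and 2.46 CPM in Tsc1 mutant clones, against 4.62, 19.1 and 40.1 CPM in wt clones. Tsc1 NR replicate 2 was as low as the wt clones under NR, and the genotypes overlapped in both foods. This gave a Tsc1-by-food log2 difference of 6.87 (SE 1.46, adjusted p = 0.174), called in 3 of the 15 fits without 1 library (adjusted p up to 0.511). Obp56d, an odorant binding protein gene (chr2R:19702924-19703915, minus strand), was likewise low in Tsc1 NR replicate 2, with 48.7, 0.432, 95.0 and 34.9 CPM in Tsc1 mutant clones, against 0, 0, 0 and 0 CPM in wt clones under NR. Its normal food levels were 0, 0, 0.805 and 1.08 CPM in Tsc1 mutant clones, against 0.80, 0 and 3.26 CPM in wt clones. Since all wt clones were at 0 under NR, its difference is given as a lower bound of 8.60, computed against 3 counts per library (adjusted p = 0.174), and 51.4% of its summed CPM came from Tsc1 NR replicate 3.

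Markers of the fat body, the larval storage tissue, were high in only some of these clones. Pepck1, one of the 9 markers, is described with the FoxO targets below. The other 8 together measured 4.46, 4.32, 824 and 427 CPM in Tsc1 mutant clones under NR, against 21.1, 1.60, 62.5 and 19.5 CPM in wt clones. On normal food they measured 7.67, 1.06, 1.41 and 3.05 CPM in Tsc1 mutant clones, against 12.4, 28.2 and 11.1 CPM in wt clones. Tsc1 NR replicates 3 and 4 were thus high, whereas replicate 1, with the highest Aldh level and 48.7 CPM of Obp56d, was as low as replicate 2. The order of replicates 1 and 2 depends on Pepck1. With it, the 9 markers summed to 287, 10.2, 1027 and 542 CPM in Tsc1 mutant clones under NR, against 2.36 to 66.6 CPM in wt clones. On normal food these sums were 13.3 to 148 CPM in Tsc1 mutant clones and 21.8 to 85.3 CPM in wt clones. The left-out wt normal replicate 4 had 315 CPM of the 8 markers. Of the 7 tested of these 8 markers, 4 had a positive difference at an unadjusted p under 0.05 and all 7 had a positive value, with a median of 5.34 (5.05 with genes at the floor set to their bound), against 0.06 over all genes. Lsp1gamma was at 0 in all libraries of wt NR and Tsc1 normal clones, and Fbp2 in those of Tsc1 normal clones. The salivary gland markers summed to 26.8, 42.7, 633 and 268 CPM in Tsc1 mutant clones under NR, against 79.3, 80.7, 51.7 and 46.2 CPM in wt clones. On normal food they summed to 39.5 to 59.0 CPM in Tsc1 mutant clones, against 62.2 to 92.8 CPM in wt clones. Sgs4, Sgs5 and Sgs8 were at 0 in all wt libraries, and 3 of 6 tested markers had a positive difference at an unadjusted p under 0.05. Their median was 5.80 (4.97 with genes at the floor set to their bound). Of 8 tested muscle markers 4 were positive at that level, with a median of 3.16 (2.63 with such bounds). These 4, Mhc, Act57B, Mlc2 and Prm, had group means of 0.419 to 8.53 CPM. sls, with group means of 129 to 206 CPM, was at -0.36 and bt at -0.34. Their sums were 168 to 282 CPM in Tsc1 mutant clones and 98.0 to 219.6 CPM in wt clones under NR, and 190.1 to 289 CPM in Tsc1 mutant clones and 99.9 to 228 CPM in wt clones on normal food. The part of RNA from these tissues in the results for Aldh and Obp56d was not tested. Leaving out Tsc1 NR replicates 3 and 4, a setting chosen after the data were seen, gave 6 called genes in place of 17.

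bnl, Pura and ac had their highest levels in wt clones on normal food. bnl encodes Branchless, the FGF ligand that guides tracheal growth (chr3R:19794073-19836817, minus strand). It had 13.7, 2.81, 48.8 and 0.696 CPM in Tsc1 mutant clones, against 1.70, 1.98, 0 and 0.141 CPM in wt clones under NR. Normal food gave 0, 1.17, 0.603 and 0.197 CPM in Tsc1 mutant clones, against 2.40, 139 and 31.8 CPM in wt clones. The genotypes overlapped under NR and were apart on normal food, where 56.8% of the CPM of all 15 libraries came from wt normal replicate 2. A share over 50% in 1 library was found for 109 genes (1.09%). The Tsc1-by-food log2 difference was 10.89 (SE 2.05, adjusted p = 0.0931), and without that library it was no longer called.

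Pura (chr3L:7593091-7639573, plus strand) had 49.4, 7.13, 76.2 and 13.7 CPM in Tsc1 mutant clones, against 16.7, 8.20, 0.0996 and 8.48 CPM in wt clones under NR. It had 1.75, 0.638, 3.02 and 3.15 CPM in Tsc1 mutant clones, against 57.1, 22.7 and 134 CPM in wt clones on normal food. Tsc1 mutant clones were all below wt clones on normal food, and under NR the genotypes overlapped, with Tsc1 NR replicates 1 and 3 highest. The log2 difference was 7.17 (SE 1.36, adjusted p = 0.0931), of which -5.04 came from normal food. Without 1 library, bnl was called in 7 of the 15 fits (adjusted p up to 0.307) and Pura in 8 of the 15 (up to 0.307).

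ac encodes Achaete, a proneural bHLH factor of the achaete-scute complex (chrX:370031-370947, plus strand). Its levels under NR were 1.07, 0.576, 3.18 and 1.22 CPM in Tsc1 mutant clones, against 8.30, 0.283, 0.697 and 1.98 CPM in wt clones. On normal food they were 0, 0, 0 and 0 CPM in Tsc1 mutant clones, against 10.8, 87.3 and 5.55 CPM in wt clones. All 4 Tsc1 mutant clones on normal food were at 0, so that the difference is a lower bound of 5.90 (adjusted p = 0.189), and 72.2% of the summed CPM came from wt normal replicate 2. sc, its neighbor in the complex, was looked at after ac had been seen and was not called at an unadjusted p of 0.00484. It had 1.07, 0.216, 0.97 and 1.22 CPM in Tsc1 mutant clones, against 15.5, 2.17, 0 and 4.24 CPM in wt clones under NR. It had 0, 0, 0 and 0.591 CPM in Tsc1 mutant clones, against 29.1, 142 and 11.0 CPM in wt clones on normal food, and 68.3% of its CPM came from wt normal replicate 2. ase, also of the complex, was at 0.23 (unadjusted p = 0.934, adjusted p = 0.986). ac was called in 4 of the 15 fits without 1 library (adjusted p up to 0.503) and was lost without wt normal replicate 2. Not called but next in order of p among the positive genes were CG31343 and CG13272, with lower bounds of 4.15 (adjusted p = 0.212) and 6.95 (adjusted p = 0.244), and 81.9% of the CPM of CG13272 came from 1 library.

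**Figure D3:**
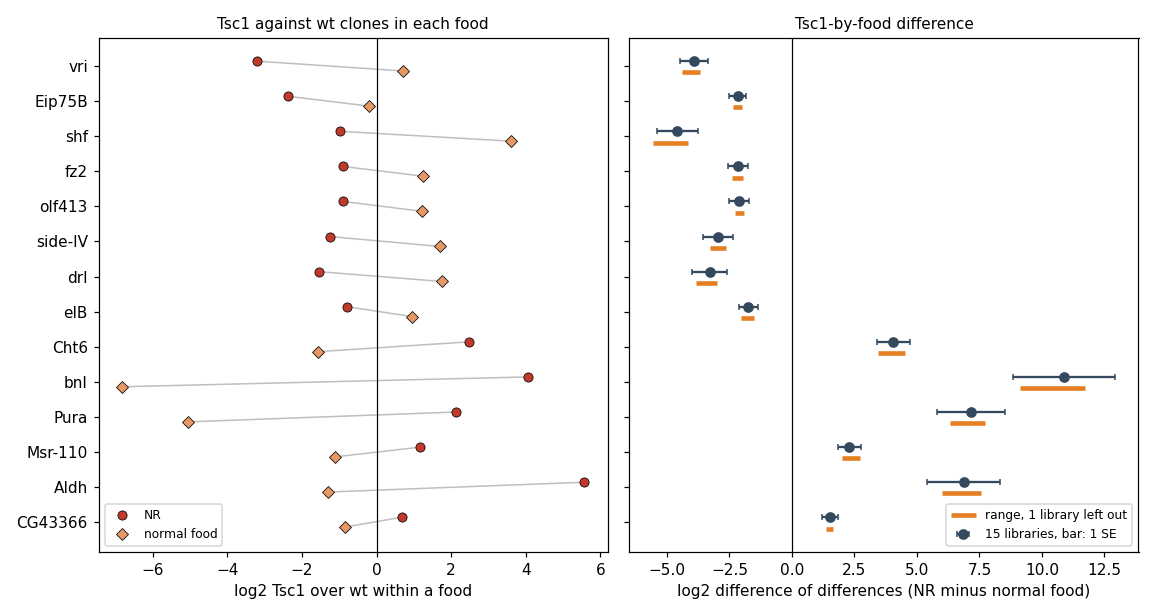
The called genes with a symbol other than Obp56d and ac (14 genes), with the log2 difference of Tsc1 over wt clones under NR (circles) and on normal food (diamonds) at left, and the Tsc1-by-food log2 difference with 1 SE and its range when 1 library is left out at right. All genes drawn but Eip75B have values of opposite sign in the 2 foods, and all ranges stay on 1 side of 0.

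Each called value can be split into its parts in the 2 foods. Of the 8 negative genes, 7 had opposite signs in the 2 foods, and the larger part was that under NR for 2 genes (vri and Eip75B) and that on normal food for 6. Of the 9 positive genes, 8 had opposite signs, with the larger part under NR for 4 and on normal food for 5. ac was the positive gene with the same sign in both foods. A reversal of order without any overlap of libraries, below wt under NR and above wt on normal food, was seen for 7 of 9979 genes (0.0701%), 5 of them called (vri, fz2, olf413, side-IV and elB). The reverse pattern was seen for 5 genes (0.0501%), which makes 12 either way (0.12%), and of the 5 CG43366 was called. The others were topi, CG32694, Dci and GIIIspla2, with Tsc1-by-food differences of 4.02, 5.54, 2.04 and 2.23, and, in the first direction, CtsB (-0.68) and CG3732 (-0.83). These 6 were chosen by this order after the values were seen. The left-out wt normal replicate 4 had 49.8 CPM of vri, 210 of fz2, 202 of olf413 and 37.3 of CG43366. Each lay within the range of the Tsc1 mutant clones on normal food, as did Cht6 (54.5 CPM), Msr-110 (68.8), Pura (1.79) and bnl (0). In the same library drl (113 CPM) and shf (22.9) lay between that range and the 3 wt clones used. Its levels of side-IV (15.8 CPM), elB (4.30) and Aldh (0) were below that range. Those of elB and Aldh were also below the 3 wt clones used.

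The eye patterning genes so, eya and hth had an unadjusted p under 0.05 in the same comparison and were not called. so, a homeobox gene of the retinal determination network, had 66.1, 152, 59.8 and 91.0 CPM in Tsc1 mutant clones, against 29.0, 145, 144 and 125 CPM in wt clones under NR. On normal food it had 114, 117, 141 and 122 CPM in Tsc1 mutant clones, against 47.7, 8.62 and 27.8 CPM in wt clones. Its log2 difference was -2.40 (unadjusted p = 0.00415, adjusted p = 0.455). eya, the partner of so in that network, had 134, 542, 66.9 and 175 CPM in Tsc1 mutant clones, against 85.4, 599, 591 and 670.0 CPM in wt clones under NR. It had 401, 419, 331 and 486 CPM in Tsc1 mutant clones, against 264, 18.2 and 122 CPM in wt clones on normal food. The lowest level of both genes was in wt normal replicate 2, at 8.62 CPM for so and 18.2 CPM for eya, and the difference of eya was -2.68 (unadjusted p = 0.0218, adjusted p = 0.572). hth, which encodes a homeodomain factor of anterior progenitors and of the disc margin, ran the other way with 3.22 (unadjusted p = 0.019, adjusted p = 0.564). It had 539, 24.4, 568 and 424 CPM in Tsc1 mutant clones, against 1017, 89.8, 38.8 and 136 CPM in wt clones under NR. For normal food the levels were 70.3, 81.7, 96.3 and 81.8 CPM in Tsc1 mutant clones, against 376, 728 and 800.2 CPM in wt clones. The 4 Tsc1 mutant clones on normal food lay between 70.3 and 96.3 CPM, below all 3 wt clones.

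Of 13 tested retinal determination genes, 3 had a negative difference (so, eya and Optix) and 1 a positive one (hth) at an unadjusted p under 0.05, with a median of -1.92. None was called. Of 29 furrow and photoreceptor genes 24 had negative values, with a median of -1.74. Only 1 of them, the EGFR ligand gene spi, had an unadjusted p under 0.05, at -1.72 (unadjusted p = 0.00879, adjusted p = 0.511). Over all 9979 genes tested, 4712 had negative values, and 8.22% had an unadjusted p under 0.05 in either direction. Ance, a peptidase gene examined after its values were seen, was at 129, 3.89, 67.7 and 113 CPM in Tsc1 mutant clones, against 610.2, 7.82, 55.0 and 446 CPM in wt clones under NR. On normal food it was at 108, 20.5, 18.2 and 3.64 CPM in Tsc1 mutant clones, against 3899.8, 4994 and 609.5 CPM in wt clones, without overlap. Summed markers of neurons and photoreceptors were 891 CPM in Tsc1 NR replicate 2, 823 and 794 CPM in wt NR replicates 2 and 4 and 1038 CPM in Tsc1 normal replicate 4, and 40.6 to 198 CPM in the other 11 libraries. Clones thus differed in the levels of genes that mark position in the disc, both between and within groups, and the part of clone position in the called genes was not tested. Without those 4 libraries, a setting chosen after the data were seen, 24 genes were called, and 11 of them were among the 17.

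**Figure D4:**
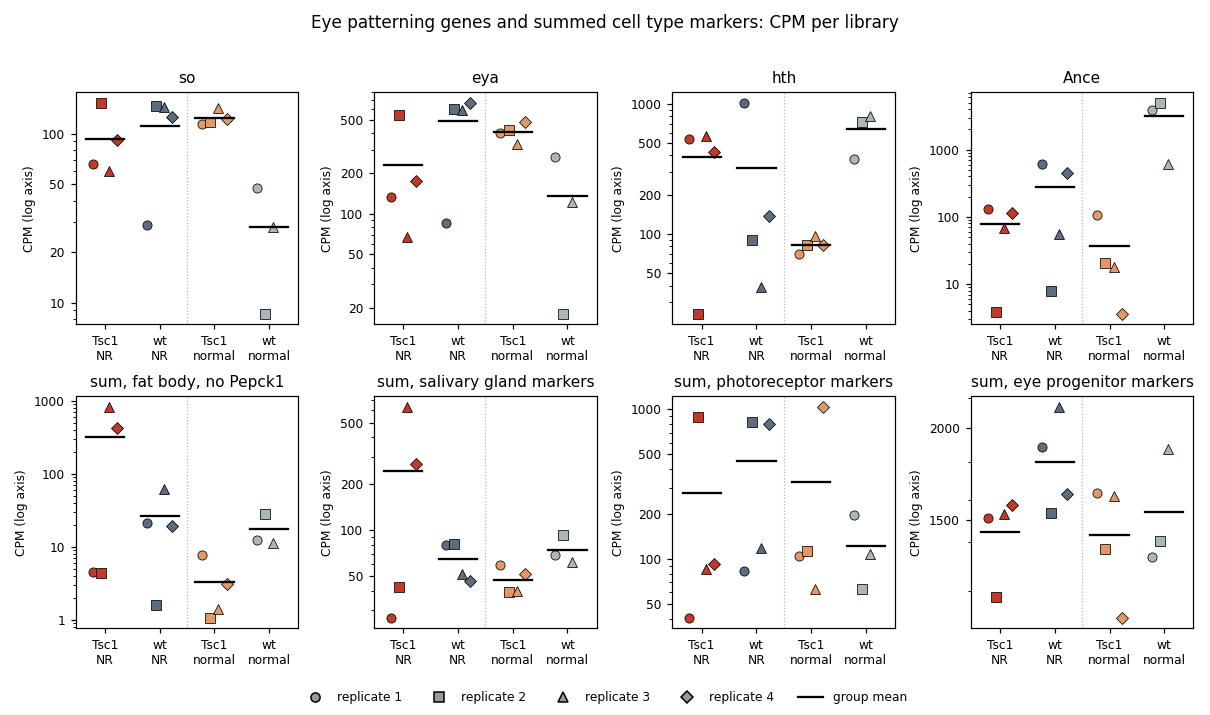
CPM of eye patterning genes and summed CPM of cell type markers in each library, with Tsc1 and wt clones under NR at left and on normal food at right (points are libraries, the symbol gives the replicate number and the horizontal bars are group means). eya and so are lowest in wt normal replicate 2, and the sum of the 8 fat body markers other than Pepck1 is highest in Tsc1 NR replicates 3 and 4.

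No tested member of the insulin and TORC1 or FoxO target lists was called. Of 31 insulin and TORC1 pathway genes, 1 was positive and 1 negative at an unadjusted p under 0.05, and the median was -0.09. Tor, S6k and PRAS40, which were also on the list, were not matched in the table and are not analysed here. Pdk1, the kinase that activates Akt, had 10.9, 12.3, 12.0 and 11.3 CPM in Tsc1 mutant clones, against 29.5, 54.7, 37.2 and 33.6 CPM in wt clones under NR. Its levels on normal food were 25.9, 19.1, 17.5 and 14.5 CPM in Tsc1 mutant clones, against 33.0, 35.1 and 17.1 CPM in wt clones. It was lower in every Tsc1 mutant clone than in any wt clone under NR and overlapped on normal food, with a difference of -1.18 (unadjusted p = 0.00884, adjusted p = 0.511). Sesn, which encodes the TORC1 inhibitor Sestrin, had 5.93, 8.00, 9.0 and 3.65 CPM in Tsc1 mutant clones, against 1.81, 0.754, 0.199 and 0 CPM in wt clones under NR. It had 4.49, 3.93, 9.35 and 7.09 CPM in Tsc1 mutant clones, against 3.56, 4.70 and 7.07 CPM in wt clones on normal food. The 4 wt clones under NR were the lowest, and the difference was 2.94 (unadjusted p = 0.0114, adjusted p = 0.516).

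Sesn was also among the 13 FoxO target genes tested, of which 2 were positive and 1 negative at an unadjusted p under 0.05, with a median of 0.54. The other positive one was Pepck1, the gluconeogenic enzyme PEPCK, which is also on the fat body marker list. It had 283, 5.91, 203 and 115.4 CPM in Tsc1 mutant clones, against 9.69, 0.754, 4.18 and 2.54 CPM in wt clones under NR. The libraries on normal food had 49.3, 147, 108 and 10.2 CPM in Tsc1 mutant clones, against 9.43, 40.3 and 74.2 CPM in wt clones. The genotypes overlapped in both foods, with Tsc1 NR replicate 2 far below the other 3 Tsc1 mutant clones under NR, and the difference was 4.21 (unadjusted p = 0.00784, adjusted p = 0.509). Mnt, the repressor that opposes Myc, was at -1.17 (unadjusted p = 0.0144, adjusted p = 0.543). Of 19 antioxidant genes 4 were positive and 1 was negative at that level, with a median of 0.27. Prx2, a peroxiredoxin gene, was at 1.15 (unadjusted p = 0.0112, adjusted p = 0.516) and GstS1, a glutathione S-transferase gene, at -1.29 (unadjusted p = 0.00665, adjusted p = 0.499).

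Among genes of the ecdysone response, Eip75B alone was called of 18 tested, and the median was 0.29. ftz-f1, a nuclear receptor that acts in later phases of the hormone response, had 55.1, 49.4, 77.9 and 88.1 CPM in Tsc1 mutant clones, against 22.6, 24.9, 17.1 and 41.8 CPM in wt clones under NR. Normal food gave 47.5, 38.0, 31.3 and 58.3 CPM in Tsc1 mutant clones, against 30.4, 24.5 and 66.7 CPM in wt clones. All Tsc1 mutant clones exceeded all wt clones under NR, opposite to Eip75B, and the difference was 1.24 (unadjusted p = 0.0238, adjusted p = 0.572). Of 10 circadian clock genes, gathered after vri had been seen, vri was called and 4 were positive at an unadjusted p under 0.05. Pdp1, which activates Clock where vri represses it, had 33.7, 31.6, 66.6 and 48.4 CPM in Tsc1 mutant clones, against 25.9, 7.07, 13.7 and 8.20 CPM in wt clones under NR, without overlap. It had 35.9, 10.2, 26.4 and 14.3 CPM in Tsc1 mutant clones, against 20.3, 47.0 and 40.5 CPM in wt clones on normal food, and its difference of 2.44 (unadjusted p = 0.00192, adjusted p = 0.411) was not called. cwo, a repressor in the clock, was at 1.04 (unadjusted p = 0.0136, adjusted p = 0.538). The positive genes tim and Pdfr had group means of only 0.0274 to 1.90 CPM, with lower bounds of 3.20 and 3.13. Clock itself (Clk) had group means of 0.274 to 2.28 CPM and was at -0.12 (unadjusted p = 0.966, adjusted p = 0.993). per was at 2.96 (unadjusted p = 0.215, adjusted p = 0.758) and cyc at -0.35 (unadjusted p = 0.452, adjusted p = 0.862). Whether larvae were dissected at the same time of day is not given in the sources used here.

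Of 19 tested genes of chitin and apical matrix, gathered after Cht6 had been seen, 3 were positive and 1 negative at an unadjusted p under 0.05. The negative one was kkv, the chitin synthase gene, with -1.53 (unadjusted p = 0.00377, adjusted p = 0.455). It had 201, 281, 118 and 269.8 CPM in Tsc1 mutant clones, against 133, 254, 341 and 305 CPM in wt clones under NR. It had 346, 403, 302 and 306 CPM in Tsc1 mutant clones, against 187, 95.8 and 135 CPM in wt clones on normal food, where all wt clones were below all Tsc1 mutant clones. dpy, a giant apical matrix protein gene, was at 1.60 (unadjusted p = 0.00129, adjusted p = 0.389) and Cht6 was called.

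**Figure D5:**
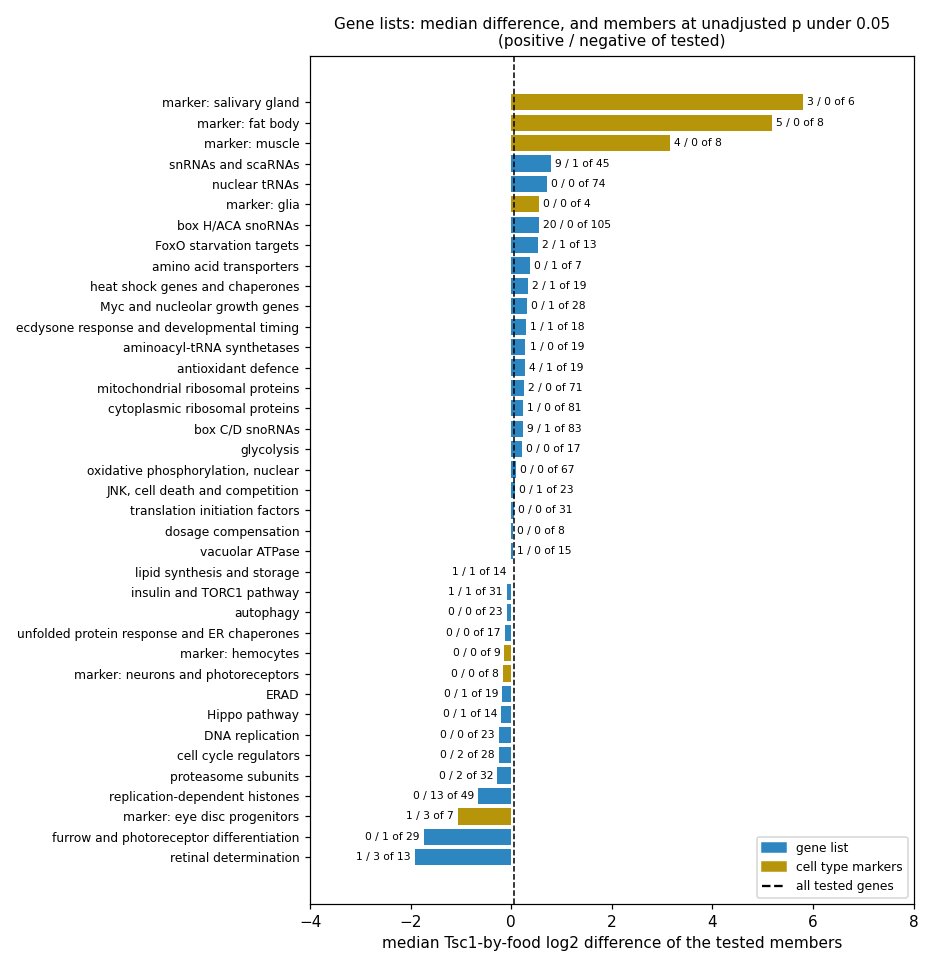
Median Tsc1-by-food log2 difference of the tested members of each gene list (blue) and cell type marker list (ochre), with the number tested. Fat body, salivary gland and muscle markers lie highest, retinal determination and furrow genes lowest, and the insulin and TORC1 pathway at -0.09 close to the 0.06 of all genes.

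Of 105 tested box H/ACA snoRNAs, which guide pseudouridylation of rRNA, 90 had positive values. At an unadjusted p under 0.05, 20 were positive and none was negative, and the median was 0.55. Of 83 box C/D snoRNAs 9 were positive and 1 negative, with a median of 0.24, and of 45 snRNAs and scaRNAs 9 were positive and 1 negative, with a median of 0.80. No gene of these 3 lists was called. Replication-dependent histone genes ran the other way, with 13 of 49 negative, none positive and a median of -0.66. The histone genes are near-identical copies, and several of the snRNA genes are too, so that the split of reads among copies is uncertain and the members are not independent. snoRNA and snRNA took 1.11% to 2.94% of the counts of a library and annotated rRNA 27.3% to 55.9%, and 17 genes were called without either class.

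The median over genes of protein production and turnover was 0.24 for 81 cytoplasmic and 0.25 for 71 mitochondrial ribosomal protein genes, -0.28 for 32 proteasome subunit genes, -0.18 for 19 ERAD genes, -0.14 for 17 genes of the unfolded protein response and -0.09 for 23 autophagy genes, and none of these lists held a called gene. Of the proteasome genes 25 had negative values and 2 an unadjusted p under 0.05, Prosbeta2 at -1.06 (unadjusted p = 0.011, adjusted p = 0.516) and Rpt6 at -0.69 (unadjusted p = 0.0181, adjusted p = 0.564). Of 28 cell cycle regulators, E2f1 at -1.22 (unadjusted p = 0.015, adjusted p = 0.543) and Cdk2 at -1.11 (unadjusted p = 0.0158, adjusted p = 0.545), which drive entry into S phase, were negative at that level. Of 14 Hippo pathway genes 1 was, the target gene fj at -2.22 (unadjusted p = 0.0107, adjusted p = 0.516). Hsp70Aa and Hsp70Ab, the inducible heat shock chaperones and near-identical copies, had differences of 4.13 and 3.03 that were not called, with 67.1% and 60.8% of the CPM in 1 library, and that were -1.17 and -0.94 without Tsc1 NR replicates 3 and 4.

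The targeted gene and the gene knocked down elsewhere in the series gave no called difference. Tsc1 (chr3R:24130307-24134654, plus strand) had 16.1, 18.1, 20.6 and 18.9 CPM in Tsc1 mutant clones, against 25.8, 26.6, 44.1 and 22.8 CPM in wt clones under NR. On normal food it had 43.2, 13.9, 25.8 and 16.4 CPM in Tsc1 mutant clones, against 14.9, 28.1 and 25.2 CPM in wt clones. The counts do not tell the mutant allele from the wt allele, and a nonsense allele need not lower them, so that these levels do not check the genotype. The study itself reported only mutant transcripts at the Q87X position in Tsc1 mutant clones. Its example was a clone with foxo knockdown under NR. Tsc1 mutant clones were all below wt clones under NR and overlapped with them on normal food, with a difference of -0.82 (SE 0.49, adjusted p = 0.679). An exact permutation test of genotype labels within each food gave -0.64 on the log2(CPM + 2) scale (p = 0.23, two-sided, 2450 arrangements). With wt normal replicate 4 added it gave -0.14 (p = 0.864, exact, 4900 arrangements). foxo had 24.0, 26.9, 24.4 and 26.8 CPM in Tsc1 mutant clones, against 42.4, 56.6, 59.97 and 40.8 CPM in wt clones under NR. It had 38.8, 35.8, 33.5 and 30.3 CPM in Tsc1 mutant clones, against 67.2, 35.1 and 32.7 CPM in wt clones on normal food. Its difference was -0.59 (SE 0.34, adjusted p = 0.679), and the permutation value was -0.61 (p = 0.202, exact).

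The same difference was computed for clones shifted to 30°C in which foxo was knocked down, where the temperature and the knockdown cannot be told apart, in 1 fit of 29 libraries that left out 1 foxo knockdown library under NR as well. None of 13524 genes was called there by edgeR's quasi-likelihood test, and 1322 had an unadjusted p under 0.05 (9.78%). Of the 17 genes called at 25°C, Obp56d had no count at 30°C in clones with foxo knockdown alone, and its sign there is not measured. Of the other 16, 13 had the same sign at 30°C (81.2%), against 73.2% of 813 genes with an unadjusted p under 0.05 at 25°C and 60.8% of 9924 genes tested in both and counted in both genotypes at 30°C, and the 2 comparisons share no library, although the fit estimated their spread together. The values at 30°C were -1.06 (SE 0.80) for vri, -0.40 (SE 0.36) for Eip75B, 1.30 (SE 0.84) for Cht6, -1.23 (SE 0.85) for shf, -0.60 (SE 0.52) for fz2 and -1.40 (SE 0.43) for olf413, each smaller in size than at 25°C. Pura ran against its sign at 25°C with -1.79 (SE 1.40), as did bnl with -4.33 (SE 1.90). The difference between the 25°C and 30°C values was called for 1 gene of 13524 (0.00739%), bnl, at 15.23 (adjusted p = 0.101), and 641 had an unadjusted p under 0.05 (4.74%).

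Totals of the 15 libraries ranged from 6877693 to 13315842 counts (median 10473201), on 9107 to 14950 genes. Tsc1 NR replicate 2, which was low in Aldh, Obp56d and Pepck1, had the most genes with a count. It also had the lowest share of annotated rRNA (27.3%, median 43.7%) and the highest TMM factor (1.56, median 1.01). The spread between libraries of a group was wide, with a common biological coefficient of variation of 0.628. Summed levels of the dosage compensation genes were 1718 and 1765 CPM in wt NR replicates 2 and 3 and 366 to 788 CPM in the other libraries, and by the study's methods larvae were not chosen by sex. The X-linked genes among the 16, shf, Cht6 and ac, were not tested for a part of larval sex. Summed markers of eye disc progenitors were present in all 15 libraries, at 1105 to 2139 CPM.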

How the data were processed

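RNA of single laser-microdissected clones was sequenced with the Ovation SoLo kit. The authors ran Trimmomatic, STAR on BDGP6 and featureCounts, and the deposited table holds estimated counts, not normalized. Of 17559 genes, 17253 matched the BDGP6.54 annotation, and 17.1% of values were not whole and were rounded. No sequencing batch is given in the labels.

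Counts of 15 libraries were fitted in edgeR 4.0.16 (R 4.3.3) with filterByExpr, TMM normalization, 1 coefficient for each of 4 groups and the quasi-likelihood test, with Benjamini-Hochberg adjustment over all 9979 genes tested. SE is the absolute log2 difference over the square root of F. Where all libraries of a group held at most 3 counts, a bound is given against 3 counts per library, which covers counting error only. Named genes were Tsc1, foxo, the called genes, genes filling each direction to 10, and up to 2 members a list and direction by p. Genes outside this rule are said to be chosen after values were seen. Symbols and coordinates come from the annotation, and genes without a symbol are not described.

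The genes, lists and tests were chosen with earlier results of these data known. The lists were written from textbook roles. 38 lists were counted, with no set test. Alternatives were wt normal replicate 4, 29 or 31 libraries, other normalizations, filters, tests (DESeq2 1.42.0, limma 3.58.1), a replicate block, and each library left out. The fit was also run on simulated counts, with changes placed only in Tsc1 NR libraries and only in well-counted genes. That run does not cover genes with low counts or changes in more than 1 group.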

Additional observations from a re-analysis of the deposited data

Results flagged for a closer look

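Under NR, Aldh was at 1.44 CPM in Tsc1 NR replicate 2, far from the 94.5 to 145 CPM of the other 3 Tsc1 mutant clones. CG31343 was at 0.0942 CPM in wt NR replicate 2, which is 1 count, and at 0 in the other 3 wt clones under NR. Any count beside 3 libraries at 0 is flagged by this check, so that this flag carries no information. Of 66 groups of 4 libraries checked for a library far from the others, these 2 were flagged, and chance gives about 5%.

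The Tsc1 effect differed between the foods by the test of the difference for 17 genes. Negative log2 differences were -3.92 for vri, -2.17 for Eip75B, -4.58 for shf, -2.16 for fz2, -2.11 for olf413, -2.94 for side-IV, -3.29 for drl and -1.75 for elB. Positive ones were 4.05 for Cht6, 10.89 for bnl, 7.17 for Pura, 2.29 for Msr-110, 6.87 for Aldh, 1.53 for CG43366 and 2.31 for FBgn0250876, which has no symbol in the annotation (adjusted p = 0.174). The fitted values of 13.35 for Obp56d and 10.57 for ac rest on a group at 0 and depend on the prior count, and their bounds are given above. Of the 17, vri, Eip75B and Cht6 were the 3 called in every fit without 1 library.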

How the results depend on the processing

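The number of called genes, 17 in the reported fit, was 6 with wt normal replicate 4, 9 in a fit of all 31 libraries (4 of them among the 17), 41 without a filter on low counts, 130 with DESeq2, 144 with the likelihood ratio test and 3 at an adjusted p under 0.05. DESeq2 and the likelihood ratio test each called all 17 genes. It ranged from 3 to 128 when 1 library was left out, and was 6 without Tsc1 NR replicates 3 and 4. With 29 libraries, other normalizations, a stricter filter, limma-voom, no rRNA, no snoRNA, no minimum log2 difference or library size as a covariate it was 13 to 17. The share of positive calls was 52.9% in the reported fit, 37.5% with limma-voom, 38.5% with library size as a covariate, 33.3% with wt normal replicate 4, 62.5% with 29 libraries, 77.8% with 31, 68.3% without a filter, 75.4% with DESeq2 and 82.6% with the likelihood ratio test. The median over all genes, 0.06 in the reported fit, was 0.28 with 29 libraries and 0.35 without a filter. No called gene reversed under any alternative, but the alternatives drew on the libraries from which the genes were called and are not a separate check. With 14 settings other than leaving out a library, Eip75B and shf were called in all, and vri (adjusted p = 0.438) and Cht6 (adjusted p = 0.395) in all but the fit of 31 libraries. With the replicate number as a block, 14 genes were called. Libraries with the same number did not deviate together, with correlations of -0.37 to 0.52 over 21 pairs and 8 of them over 0.1, and 1 of 15 libraries correlated best with its own number. The causes of these changes were not tested. With 3 or 4 libraries a group and a coefficient of variation of 0.628, a small difference between foods may go undetected.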
